A study of Mus musculus with 6 samples.

Results

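The genes described here are 8 transcription factors that mark or pattern the olfactory placode, the patch of head ectoderm from which the olfactory epithelium forms: Sox2, Sox9, Pax6, Six4, Meis1, Otx2, Emx2 and Lhx2. They were chosen by name from 21938 protein-coding genes of the annotation (GRCm38, GENCODE M21), not by a threshold on any measured value, and with earlier results of these data known. What was measured was how open the chromatin at these genes was in cells of the adult olfactory epithelium, before and 24 h after injury. Openness was read as cut sites, the places where the transposase of the assay entered the DNA, in windows of 1 kb either side of each annotated transcript start and in 500 bp tiles over each gene and 100 kb on each side of it.

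Placodal tissue is specified by SIX4 and EYA proteins together with PAX6, and SOX2 keeps its cells in a progenitor state. OTX2 and EMX2 are head homeobox factors required for the normal olfactory epithelium, LHX2 is required for olfactory sensory neurons to mature, and MEIS1 is a homeobox cofactor that binds DNA with HOX and PBX partners. In the adult epithelium SOX2 and PAX6 remain present in basal stem cells and in sustentacular cells, and SOX9 is known from glands, ducts and other epithelial progenitors.

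Horizontal basal cells (HBCs) are the deepest cells of this epithelium and its stem cells in reserve, quiet until injury removes the cells above them. All mice carried a Krt5-CreERT2 driver and a Rosa26 LSL-YFP reporter (Krt5CreER; Rosa26LSL-YFP/LSL-YFP in the sample labels), so the controls carried the same alleles. YFP-positive, propidium iodide-negative cells of the dorsal epithelium were sorted and profiled by droplet single-cell ATAC-seq in 3 uninjured libraries and 3 libraries taken 24 h after intraperitoneal methimazole, a drug that destroys the cells above the basal layer. Mice were 8 weeks old in replicate 1, 6 weeks in replicate 2 and 6 to 7 weeks in replicate 3 of both groups, and whether a library held 1 animal or several is not given in the sources used here. The reporter marks every cell in which the Krt5 promoter had driven Cre, and the descendants of those cells, so it is not limited to HBCs.

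The libraries held 420 to 1338 barcodes with at least 2000 fragments, 4476 in all, with 14825320 to 44875242 cut sites per library. Uninjured replicate 3 and injured replicate 3 shared 34 such barcodes, with 5.97% of the fragments of the smaller set identical, and no other pair of the 6 libraries shared more than 4. Injured replicate 2 shared 1 to 4 barcodes with each of injured replicate 1, uninjured replicate 2 and uninjured replicate 1, with 91.7%, 33.55% and 20.6% of the fragments of the smaller set identical. These few were deep, and leaving out its shared barcodes took injured replicate 2 from 23684386 to 19666872 cut sites. All 109 barcodes found in more than 1 library were therefore left out in a second fit, whose values stand beside the results they touch. All 8 fixed HBC markers were detected, and the HBC-like clusters 1, 2, 10 and 11 made up 71.8%, 64.7% and 25.9% of barcodes in uninjured replicates 1 to 3 and 74.4%, 59.8% and 21.3% after injury. In replicate 3 of both groups, the unnamed clusters 3, 4 and 9, with Reg3g, an antimicrobial lectin gene of epithelia, among their 10 leading genes, were the larger share, at 53.6% and 42.1%. Reg3g is in the fixed respiratory marker list of 7 genes, as is Adh7, another leading gene of cluster 3. The respiratory marker scores of clusters 3, 4 and 9 were 0.168, 0.222 and 0.567. The HBC marker scores of clusters 4 and 9 (0.825 and 0.835) were above those of clusters 10 and 11 (0.530 and 0.575), and they are not counted in the HBC-like shares. A summed library cannot tell fewer cells of a type from less open chromatin per cell. Cut sites in start windows of all genes took 34.2% to 36.1% of each uninjured library and 27.5% to 30.6% of each injured one (exact two-sided permutation p = 0.1, the smallest that 3 against 3 allows), and the part of this shift in the results was not tested.

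The starts of the 8 genes were open in both groups, and none changed by the test. All 29 start windows of the 8 genes passed the filter on low counts, and edgeR's quasi-likelihood test with Benjamini-Hochberg adjustment over 36479 windows called 0 of them at an adjusted p under 0.05, where 5.78% of all windows were called. DESeq2 also called 0, beside 8.29% of all windows, and 1 of the 29 had an unadjusted p under 0.05. Of the 29, 17 had a log2 change below 0, and their median of -0.06 lay beside 0.04 for all windows tested. All windows have the same length, so levels can be set side by side between genes, as cut sites per 1000000 with TMM scaling (CPM).

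Sox2, the progenitor factor, had 29.8, 29.8 and 33.4 CPM in its start window in the uninjured libraries and 28.9, 27.6 and 27.3 CPM after injury. Every injured library lay below every uninjured one, which was so for no other of the 29 windows and for 27.6% of all windows in either direction. The log2 change was -0.15 ± 0.08 (SE; edgeR adjusted p = 0.323).

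Sox9, the other SOX factor, had 35.5, 29.98 and 28.5 CPM before and 28.8, 30.1 and 20.5 CPM after injury. The groups overlapped, and the lowest value came from injured replicate 3. Its log2 change was -0.24 ± 0.14 (SE; edgeR adjusted p = 0.338).

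Pax6, a paired-box master regulator of eye and nose, has 11 annotated starts that were tested, and its most open one, start 4, was the highest level of the 8 genes. That window had 41.4, 43.1 and 43.2 CPM before and 46.5, 42.2 and 35.2 CPM after injury, so that the injured values spread on both sides of the uninjured ones. The 11 windows ran from 0.83 to 41.9 CPM in their mean over the 6 libraries, and Pax6 is ranked by the highest of them. Start 4 belongs to a processed transcript, and its window overlaps that of the protein-coding start 5, which had a mean of 37.6 CPM. Start 2 was the window with the unadjusted p under 0.05 (log2 change 0.45 ± 0.20 SE; edgeR adjusted p = 0.219). Its levels were 5.26, 7.81 and 6.25 CPM before and 8.86, 10.1 and 7.59 CPM after injury, overlapping between the groups.

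Six4, a homeobox factor that acts with EYA cofactors, had 27.3, 27.6 and 27.9 CPM before and 27.7, 24.7 and 21.2 CPM after injury. The uninjured libraries differed by less than 1 CPM, while the injured ones reached from within that range to well under it. Meis1 at start 1 had 29.6, 23.3 and 28.4 CPM before and 24.4, 23.1 and 25.2 CPM after, with overlap. The log2 changes of these windows were -0.17 ± 0.10 and -0.15 ± 0.10 (SE).

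The head homeobox factors were less open. Otx2 at start 3 had 16.4, 11.98 and 9.28 CPM before and 14.0, 10.0 and 9.94 CPM after injury, and the spread within each group exceeded the difference between them. Emx2 at start 1 had 16.0, 15.5 and 14.4 CPM before and 12.3, 11.4 and 14.6 CPM after, with injured replicate 3 inside the uninjured range. Lhx2 at start 3, the LIM homeobox factor of neurons, had 13.1, 7.93 and 9.39 CPM before and 9.93, 10.6 and 15.6 CPM after. In order of mean level over the 6 libraries, Pax6 (41.9 CPM) stood above Sox2 (29.5), Sox9 (28.9), Six4 (26.1) and Meis1 (25.7), and these above Emx2 (14.0), Otx2 (11.9) and Lhx2 (11.1). Within the middle and the lowest group the libraries of neighbouring genes overlapped, and Pax6 overlapped no other gene except in its lowest injured library, which lay just below the highest Sox9 value.

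**Figure D1:**
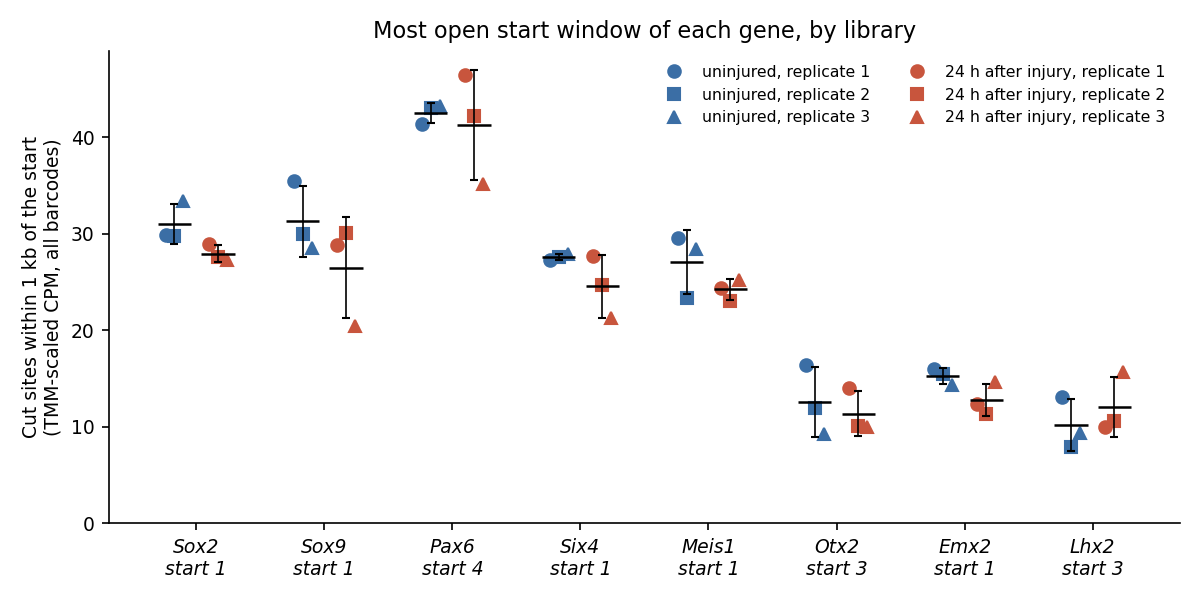
Cut sites in the most open start window of each of the 8 genes (y axis, TMM-scaled CPM over all barcodes) in each library, with the mean and SD of 3 libraries per group; blue marks uninjured and red 24 h after injury. Pax6 sits highest at 35.2 to 46.5 CPM, and only for Sox2 are all injured points below all uninjured points.

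The sequence at these starts is given as a description, since 1 window per gene was picked for being the most open and is set beside all start windows, open or not. These 8 windows had a ratio of observed to expected CpG of 0.602 to 0.817, where the median over all start windows was 0.267. Other starts of the same genes reached lower, with 0.176 at Lhx2 start 2, 0.177 at Meis1 start 3 and 0.248 at Pax6 start 11. The GC content of the most open windows ran from 50.6% at Meis1 to 64.7% at Sox2, above the median of 48.6%. The Sox2 window was richer in GC than 98.6% of all start windows, and the Meis1 window than 59.7%.

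The count of 0 depends on what the libraries are scaled by. With TMM factors from 10 kb bins of the genome, 12 of the 29 windows were called, all lower, but the median log2 change of all windows was then -0.42 against 0.04, and the calls over all windows moved from 1019 higher and 1091 lower to 768 and 11498. With total cut sites alone, 7 of the 29 were called, all lower, where 21.9% of all windows were called and the median was -0.17. Without the shared barcodes, 0 were called.

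Other genes of the placodal network were called about as often as all windows. Of a list of 51 such genes, 119 of 125 start windows were tested, and 3 rose and 3 fell, 5.04% in all against the 5.78% of all windows. The risers were start 2 of Eya1, whose product is a phosphatase and partner of SIX4, start 4 of the zinc finger factor Gata2 and start 3 of Eya4. Eya1 start 2 had 6.81, 8.97 and 8.49 CPM before and 19.3, 17.9 and 11.5 CPM after injury, without overlap, and rose by 0.99 ± 0.19 (log2, SE; edgeR adjusted p = 0.0109). Gata2 start 4 and Eya4 start 3 were higher by 1.33 and 1.82 on the log2 scale from low uninjured levels of 2.29 ± 0.72 and 0.670 ± 0.096 CPM (SD, n = 3). These 2 starts belong to a retained intron and a processed transcript. Start 1 of Eya1, Gata2 and Eya4, each protein-coding, was not called, with log2 changes of 0.05, 0.19 and -0.15. The windows that fell belonged to Six5, the MEIS relative Pknox1 and Six2, with log2 changes of -0.41, -0.39 and -0.30. Six5 had 37.1, 37.7 and 38.4 CPM before and 28.9, 29.3 and 27.1 CPM after injury. With the replicate number as a block 17 of these windows were called, where 11.5% of all windows were. Scaling by 10 kb bins gave 29 called, 26 of them lower, and total cut sites gave 23, 20 of them lower, where 33.6% and 21.9% of all windows were called. Without injured replicate 1, injured replicate 2 or uninjured replicate 1 the count was 1 in each case, where 1.37%, 1.15% and 1.36% of all windows were called. Without uninjured replicate 2 it was 3, beside 1.63% of all windows, and without injured replicate 3 it was 10, beside 7.90%.

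Among classes of cells the levels of the 8 genes ranged widely, from nearly closed to more open than anywhere in the summed libraries. Here a level is the cut sites in the window per 1000000 cut sites of that class in a library, for libraries with at least 20 cells of the class. Clusters were made without any region of the 8 loci, and the comparison of clusters is a description with no test. HBC-like clusters 1 and 2, which came nearly all from uninjured libraries, had 33.4 ± 4.4 CPM at Sox2, 40.7 ± 3.8 at Sox9 and 50.5 ± 2.7 at Pax6 (SD, n = 3 libraries). Activated HBC-like clusters 10 and 11, nearly all from injured libraries, had 29.0 ± 1.3, 28.2 ± 5.6 and 42.9 ± 6.0 CPM (SD, n = 3). The share of cut sites in the starts of all genes was also lower there, at 30.2% against 37.1% in clusters 1 and 2, and with TMM scaling the difference turned sign at Sox2 and Pax6 start 4 (log2 0.09 and 0.06) and was -0.27 at Sox9, none of them called. The unnamed clusters 3 and 4, found in all 6 libraries, had 38.0 ± 6.6, 35.9 ± 7.4 and 49.6 ± 6.3 CPM (SD, n = 6).

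Sustentacular-like cells, the glia-like supporting cells at the surface, had at least 20 cells in only uninjured replicates 2 and 3 (69 and 32 cells). Their Sox9 start was nearly closed, at 1.78 and 5.54 CPM, while Sox2 stood at 44.6 and 54.5 CPM, Pax6 at 53.9 and 81.3 CPM and Six4 at 33.2 and 72.9 CPM. Otx2 reached 26.8 and 38.8 CPM there, against 10.9 to 19.98 CPM in HBC-like clusters 1 and 2. Mature olfactory sensory neuron-like cells had Emx2 at 42.2 and 34.3 CPM, Meis1 at 35.6 and 33.8 CPM and Lhx2 at 33.5 and 28.8 CPM in uninjured and injured replicate 3. In those cells Sox2 had 12.2 and 5.71 CPM, Sox9 9.15 and 3.12 CPM and Otx2 2.03 and 2.08 CPM. Immature neuron or precursor-like cells stood between, with 33.1 ± 8.8 CPM at Emx2, 27.0 ± 3.3 at Lhx2, 23.2 ± 6.5 at Sox2 and 8.60 ± 2.47 at Otx2 (SD, n = 5).

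Emx2 levels also ranged widely among clusters 1 to 4, 10 and 11. Its start had 19.2 ± 4.8 CPM in HBC-like clusters 1 and 2, 10.8 ± 2.3 in activated HBC-like clusters 10 and 11 (SD, n = 3 each) and 5.67 ± 2.54 in clusters 3 and 4 (SD, n = 6). Over pooled cells the activated clusters parted, with 7.84 CPM in cluster 10 and 25.3 CPM in cluster 11. Of the 493 cells of cluster 11, 404 came from injured replicate 1, and its median of 8854 fragments per cell lay below the 18600 of cluster 10.

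**Figure D2:**
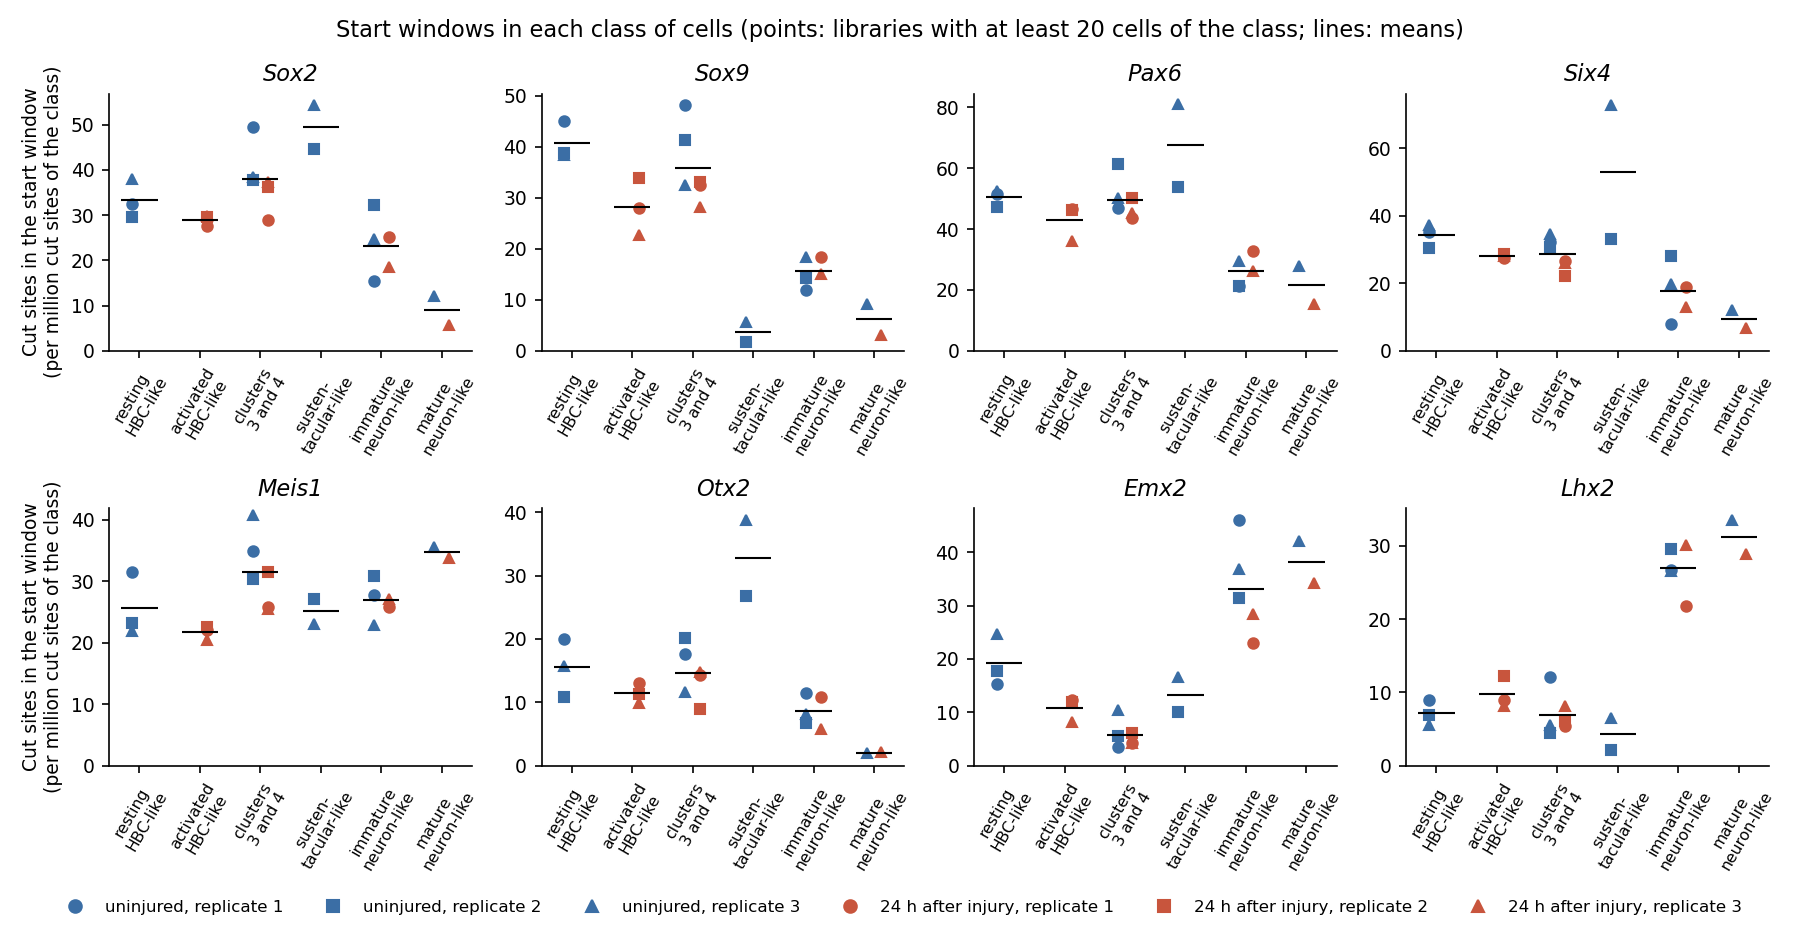
Cut sites in the most open start window of each gene (y axis, per 1000000 cut sites of the class) in 6 classes of cells; points are libraries with at least 20 cells of the class, blue uninjured and red injured, and lines are means. Sox9 is near 0 in sustentacular-like cells, where the means of Sox2, Pax6, Six4 and Otx2 are highest, and Emx2 and Lhx2 are highest in the neuron-like classes. The sustentacular-like means rest on uninjured replicates 2 and 3 alone, and Six4 in replicate 2 lies within the 30.4 to 37.3 CPM of HBC-like clusters 1 and 2.

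The sustentacular marker list moved with the groups: its 7 start windows summed to 70.6 to 74.9 CPM in uninjured and 31.9 to 42.5 CPM in injured libraries, 4 of 7 were called lower, and none was at 0 in all libraries. Sustentacular-like cells were 1.10%, 7.76% and 5.09% of uninjured and 0%, 0.24% and 0.27% of injured barcodes. The immune list summed to 1.83 to 2.46 CPM in uninjured and 3.81 to 6.45 CPM in injured libraries, with 1 of 6 windows called higher and none at 0. The ensheathing glia list (5.90 to 7.04 before, 8.57 to 11.02 CPM after), the endothelial list (7.65 to 10.7 and 12.1 to 14.4 CPM) and the Bowman's gland list (46.8 to 52.9 and 40.1 to 45.6 CPM) also did not overlap between groups, with 0 of 5 windows called in each. The activated HBC list went from 72.5 to 89.8 CPM in uninjured to 93.6 to 174.9 CPM in injured libraries, without overlap, with 5 of 8 windows called higher. The part of these lists in the values of the 8 genes was not tested over all barcodes. The fits to HBC-like cells below leave out the sustentacular-like cluster but keep the activated HBC-like clusters 10 and 11. No cluster was named for the immune, ensheathing glia, endothelial or Bowman's gland list.

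Away from the starts, the loci held tiles that did change. The loci span 3692 tiles, of which 783 passed the filter on low counts and were tested. After injury 19 rose and 8 fell by edgeR's quasi-likelihood test, 2.43% and 1.02% of those tested, where 5.47% and 1.25% of all 407941 tiles tested rose and fell. The groups did not overlap in 17.9% of the member tiles, beside 25.3% of all tiles. Meis1 held 9 of the risers and 3 of the tiles that fell, in the longest of the 8 loci with 171 tiles tested. Sox9 held 3 and 1 of 59 tested, Sox2 2 and 0 of 80, Pax6 2 and 1 of 83, Otx2 2 and 0 of 106, Emx2 1 and 2 of 83, Six4 0 and 1 of 115, and Lhx2 0 and 0 of 86. In the Lhx2 locus, where edgeR and DESeq2 each called 0 tiles, each gave 2 with an unadjusted p under 0.05, and DESeq2 called 8.08% of all tiles.

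These counts moved with single libraries. Leaving out injured replicate 1, injured replicate 2, uninjured replicate 1 or uninjured replicate 2 left 4, 3, 6 and 6 risers, where 1.56%, 1.21%, 2.00% and 1.67% of all tiles rose. The same fits left 3, 0, 0 and 0 tiles that fell, beside 0.710%, 0.177%, 0.194% and 0.229% of all tiles. Leaving out injured replicate 3 gave 35 and 21, where 7.46% and 2.19% of all tiles rose and fell, and leaving out uninjured replicate 3 gave 16 and 15, beside 4.64% and 1.64%. The share of all tiles called thus moved with the same libraries. With the replicate number as a block the counts were 24 and 13, where 6.38% and 1.85% of all tiles rose and fell. Scaling by 10 kb bins gave 8 and 35, beside 3.34% and 4.95% of all tiles, and leaving out the shared barcodes gave 17 and 11, beside 5.19% and 1.74%.

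**Figure D3:**
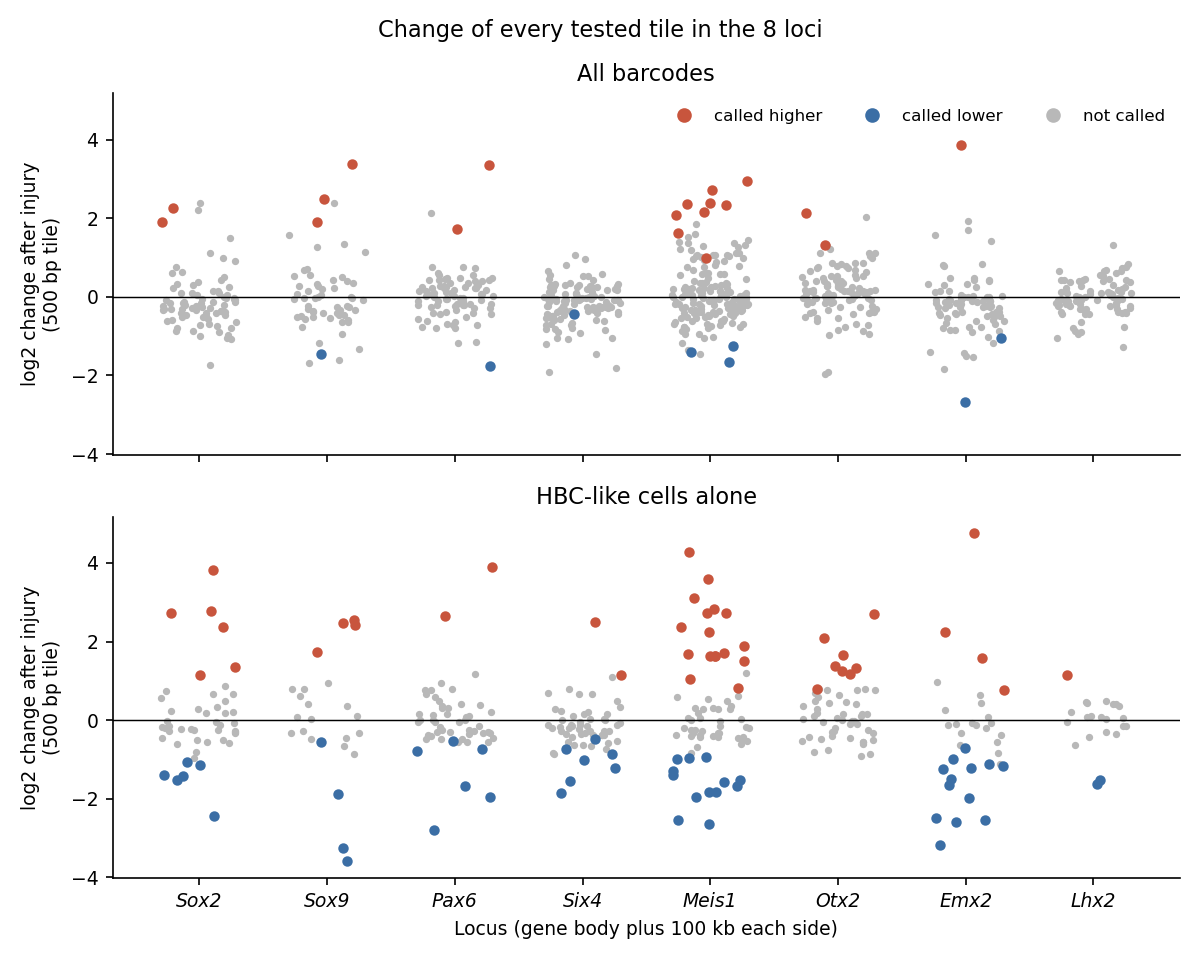
Log2 change after injury (y axis) of every tested 500 bp tile in the 8 loci (x axis), for all barcodes above and HBC-like cells alone below; red points were called higher, blue lower, grey not called. Meis1 holds 9 of the 19 risers over all barcodes, and in HBC-like cells Emx2 has 13 tiles called lower and Otx2 none. Adjoining tiles are counted separately.

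Each named changed tile is the one with the largest change in its direction among the called tiles of the locus with a mean of at least 2 CPM and no overlap between groups. In the Sox2 locus it was chr3:34743501-34744000 (GRCm38), 93.3 kb downstream of the start and between genes. It had 0.756, 1.65 and 1.43 CPM before and 8.96, 6.51 and 3.52 CPM after injury, so the lowest injured library lay above the highest uninjured one. The log2 change was 2.26 ± 0.38 (SE; edgeR adjusted p = 0.00571).

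In the Sox9 locus it was chr11:112806501-112807000, 24.5 kb downstream and between genes, with 1.01, 1.24 and 1.34 CPM before and 6.11, 4.37 and 3.15 CPM after injury. In both SOX loci injured replicate 1 was highest and injured replicate 3 lowest of the injured libraries. The Sox9 tile changed by 1.91 ± 0.31 (log2, SE; edgeR adjusted p = 0.00541).

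In the Meis1 locus the tile with the largest rise was chr11:18954001-18954500, in an intron of Meis1 itself, 64.7 kb from the start. It had 0.882, 1.15 and 0.873 CPM before and 5.85, 6.13 and 2.87 CPM after injury, and rose by 2.34 ± 0.34 (log2, SE; edgeR adjusted p = 0.00348). The tile just before it in the genome was called higher too (log2 change 2.17). The rises at Sox2, Sox9 and Meis1 passed the test whichever library was left out, with adjusted p-values of at most 0.0469.

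The Meis1 locus also held the named fall, chr11:19103001-19103500, between genes and 84.3 kb upstream of the start. This tile was well open before injury, at 12.9, 12.99 and 6.37 CPM, and stood at 3.86, 4.09 and 5.498 CPM after it. The log2 change was -1.25 ± 0.26 (SE; edgeR adjusted p = 0.0168), and it missed the threshold without injured replicate 2, uninjured replicate 1 or uninjured replicate 2 (adjusted p = 0.0669, 0.0814 and 0.0638).

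In the Pax6 locus chr2:105615501-105616000 lies 53.15 kb upstream of the start, in an intron of the antisense gene Pax6os1. It had 1.76, 0.972 and 0.553 CPM before and 3.81, 4.32 and 2.43 CPM after injury (log2 change 1.74 ± 0.42 SE; edgeR adjusted p = 0.0301). In the Otx2 locus chr14:48638501-48639000 lies 35.1 kb downstream of the start in an intron of the long non-coding RNA gene Gm35766. It had 3.53, 3.77 and 1.95 CPM before and 8.94, 9.08 and 4.91 CPM after (log2 change 1.32 ± 0.30 SE; edgeR adjusted p = 0.0240). Neither tile overlapped between groups, and both missed the threshold without injured replicate 1, injured replicate 2 or uninjured replicate 2 (adjusted p of 0.0762 to 0.183), the Otx2 tile also without uninjured replicate 1 (0.078).

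In the Emx2 locus the named fall was chr19:59468001-59468500, between genes and 9.88 kb downstream of the start, with 7.06, 7.87 and 4.97 CPM before and 4.34, 2.33 and 2.79 CPM after injury. Its log2 change was -1.06 ± 0.27 (SE; edgeR adjusted p = 0.0391), which missed the threshold without injured replicate 2, uninjured replicate 1 or uninjured replicate 2. The 7 changed tiles named above all kept their calls without the shared barcodes.

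The sequences below are shown because they hold the short motifs that are counted over all called tiles after them, so they were picked for having a match. Stretches with no match to any of the 5 motifs, among them that of the named Emx2 fall, are not shown. Each is the 200 bases centred where cut sites were densest in the named tile, forward strand of GRCm38, 5′ to 3′. Capitals mark matches, on either strand, to 5 motifs: TGANTCA, bound by AP-1 factors such as FOS and JUN, ACAANGG of SOX factors, TAATCC of OTX factors, TAATTA of LHX and EMX factors, and TGACAG of MEIS factors.
Sox2 rise, chr3:34743655-34743854: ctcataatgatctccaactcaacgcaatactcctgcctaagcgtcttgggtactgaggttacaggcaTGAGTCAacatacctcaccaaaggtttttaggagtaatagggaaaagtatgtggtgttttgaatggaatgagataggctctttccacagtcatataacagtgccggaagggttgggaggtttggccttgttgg
Sox9 rise, chr11:112806468-112806667: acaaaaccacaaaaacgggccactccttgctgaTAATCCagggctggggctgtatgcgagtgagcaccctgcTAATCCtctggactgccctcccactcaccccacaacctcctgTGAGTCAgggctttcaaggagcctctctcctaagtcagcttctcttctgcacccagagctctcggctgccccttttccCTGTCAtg
Meis1 rise, chr11:18954025-18954224: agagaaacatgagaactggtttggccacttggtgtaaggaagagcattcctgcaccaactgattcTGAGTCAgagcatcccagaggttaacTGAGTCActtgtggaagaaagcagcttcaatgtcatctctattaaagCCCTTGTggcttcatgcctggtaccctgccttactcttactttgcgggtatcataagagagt
Pax6 rise, chr2:105615517-105615716: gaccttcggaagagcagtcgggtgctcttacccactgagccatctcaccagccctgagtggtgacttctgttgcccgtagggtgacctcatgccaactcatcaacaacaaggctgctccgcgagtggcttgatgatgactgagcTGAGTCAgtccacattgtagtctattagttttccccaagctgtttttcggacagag
Otx2 rise, chr14:48638715-48638914: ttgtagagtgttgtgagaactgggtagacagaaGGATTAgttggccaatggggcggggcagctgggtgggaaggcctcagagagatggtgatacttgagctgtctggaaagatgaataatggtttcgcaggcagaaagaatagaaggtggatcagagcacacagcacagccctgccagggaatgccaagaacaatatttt
Meis1 fall, chr11:19103199-19103398: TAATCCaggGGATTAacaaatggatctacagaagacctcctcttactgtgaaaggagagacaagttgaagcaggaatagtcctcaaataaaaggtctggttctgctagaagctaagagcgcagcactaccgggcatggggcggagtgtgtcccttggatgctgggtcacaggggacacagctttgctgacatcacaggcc

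The form TGAGTCA stood in the Sox2, Sox9, Pax6 and Meis1 stretches that rose, once in each of the Sox2, Sox9 and Pax6 stretches and at positions 66 and 92 of the Meis1 stretch. The Otx2 stretch held no AP-1 match and the Meis1 stretch that fell held a pair of OTX letters facing each other, TAATCC and its reverse complement GGATTA. Over whole 500 bp tiles, 15 of the 19 risers (78.9%) and 0 of the 8 tiles that fell held an AP-1 match. The same letters were in 16.2% of the 783 member tiles tested, 20.3% of all tiles tested, 59.7% of all tiles called higher and 7.41% of all called lower. In the fit to HBC-like cells alone, given below, they were in 29 of 44 member tiles that rose (65.9%) and 8 of 51 that fell (15.7%). The 4 risers with no AP-1 match were both Otx2 tiles and 2 of the 9 Meis1 tiles.

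OTX letters were in 5 of the 8 tiles that fell (62.5%) and 5 of the 19 that rose (26.3%), beside 19.6% of all tiles tested and 27.5% of all called lower. In HBC-like cells alone they were in 17 of 51 member tiles that fell (33.3%) and 12 of 44 that rose (27.3%). SOX letters were in 5 of 19 and 2 of 8, beside 24.1% of all tiles tested. MEIS letters were in 7 of 19 and 5 of 8, beside 31.6%, and LHX and EMX letters in 4 of 19 and 0 of 8, beside 12.3%. MEIS letters were in 26.5% of all tiles called lower, and in 15 of 51 member tiles (29.4%) that fell in HBC-like cells alone. The motifs differ in letters enough that no match of any of them is at the same time a match of another. A match is a description of the sequence, and no factor's binding was measured.

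In HBC-like cells alone, a larger share of tiles was called than over all barcodes, in these loci and among all tiles. The class is nearly all clusters 1 and 2 in the uninjured and clusters 10 and 11 in the injured libraries. Injured replicates 1 to 3 held 4, 3 and 12 cells of clusters 1 and 2, and uninjured ones 1, 0 and 3 of clusters 10 and 11. The change of the class after injury is thus also largely the difference between those clusters. Of 364 member tiles tested there, 44 rose (12.1%) and 51 fell (14.0%) by edgeR's quasi-likelihood test, where 24.1% and 16.2% of all tiles rose and fell. Emx2 had 4 risers and 13 tiles that fell of 34 tested, Otx2 8 and 0 of 54, Meis1 17 and 13 of 71, Sox2 6 and 6 of 47, Sox9 4 and 4 of 24, Six4 2 and 7 of 59, Pax6 2 and 6 of 53, and Lhx2 1 and 2 of 22. Some of these tiles adjoin, so their number is not a number of separate elements. The 4 Emx2 risers all lay 56.1 to 58.1 kb upstream of the start, and most of its 13 falls adjoined another.

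At the starts, 3 of the 29 windows were called in HBC-like cells, where 24.6% of all windows were. Emx2 start 1 fell, from 14.0, 16.5 and 22.1 CPM to 13.8, 12.6 and 8.62 CPM, with a log2 change at -0.52 ± 0.18 (SE; edgeR adjusted p = 0.0243). Every injured library was below every uninjured one, by a narrow margin in replicate 1. Over pooled cells the clusters parted, with 17.1 and 18.8 CPM in clusters 1 and 2, 7.84 CPM in cluster 10 and 25.3 CPM in cluster 11. Lhx2 start 3 rose from 8.18, 6.48 and 4.95 CPM to 9.97, 12.7 and 8.62 CPM and Pax6 start 2 from 5.39, 8.30 and 6.72 CPM to 9.17, 13.4 and 9.25 CPM. Neither of these overlapped between groups, with log2 changes of 0.65 ± 0.22 and 0.61 ± 0.22 (SE; edgeR adjusted p = 0.0245 and 0.0367). The Sox2, Six4 and Meis1 start windows had log2 changes of 0.09, -0.01 and 0.03 in the same cells, and Sox9 had -0.27 (edgeR adjusted p = 0.086).

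Around Emx2 the tiles called in HBC-like cells included both directions. The most open tile of the locus outside any start, chr19:59400001-59400500, 58.1 kb upstream of Emx2 and between genes, went from 4.32, 5.69 and 2.65 CPM to 14.0, 15.3 and 11.7 CPM, with no overlap (log2 1.59; edgeR adjusted p = 7.36e-07). Over all barcodes the same tile had 3.15, 3.92 and 1.80 CPM before and 10.2, 10.3 and 3.43 CPM after injury, with injured replicate 3 inside the uninjured range and an edgeR adjusted p of 0.0546. A tile 46.6 kb upstream, chosen after its values were seen, went the other way, from 7.59, 3.37 and 6.24 CPM to 0.491, 1.13 and 0.118 CPM. The named fall at 9.88 kb downstream went from 11.1, 10.2 and 8.89 CPM to 4.91, 2.56 and 2.59 CPM in these cells (log2 -1.51; edgeR adjusted p = 1.19e-05).

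The Meis1 tile 84.3 kb upstream had the smallest adjusted p among the named tiles in HBC-like cells, with 19.2, 17.1 and 17.01 CPM before and 3.26, 2.71 and 3.18 CPM after injury. The 3 libraries of each group lay close together and far from the other group (log2 -2.53; edgeR adjusted p = 2.04e-11). The Sox2 tile at 93.3 kb went from 1.16, 1.95 and 1.13 CPM to 12.1, 9.02 and 9.66 CPM and the Otx2 tile at 35.1 kb from 3.48, 2.33 and 1.51 CPM to 11.2, 10.9 and 9.89 CPM. Replicate 3, lowest of the injured libraries at the Sox2 and Otx2 tiles over all barcodes, was close to the other 2 there in HBC-like cells. Leaving out single libraries was not run within this class.

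**Figure D4:**
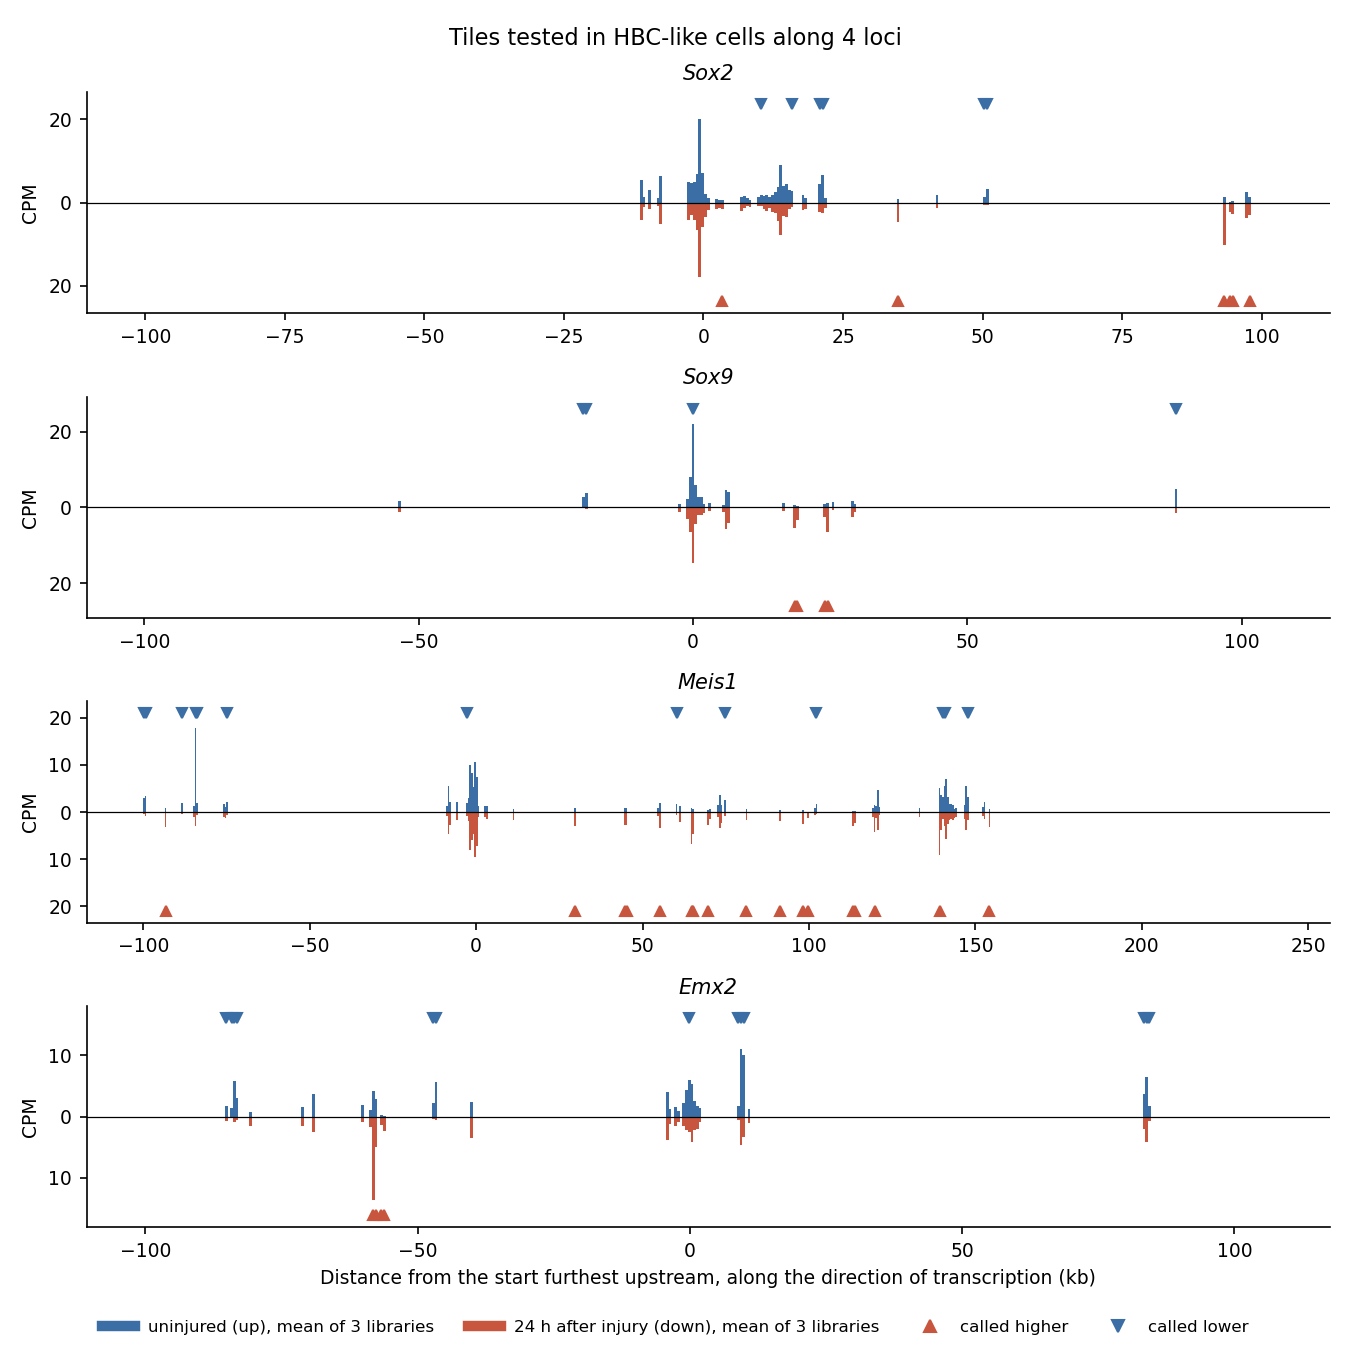
Mean CPM of each tile tested in HBC-like cells (bars up: 3 uninjured libraries; bars down: 3 injured libraries) along the Sox2, Sox9, Meis1 and Emx2 loci, against distance from the start furthest upstream in kb; red and blue triangles mark tiles called higher and lower. The start is tall in both groups and most called tiles lie away from it, although Sox9 and Emx2 each have a tile called lower at the start itself, and among those away from it is the Sox2 tile at 93.3 kb, which went from 1.13 to 1.95 CPM up to 9.02 to 12.1 CPM.

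In the unnamed clusters 3 and 4, 217 member tiles and 24 member start windows were tested and edgeR called 0, with an unadjusted p under 0.05 for 19 tiles and 0 start windows, where 1.2% and 0.159% of all tiles rose and fell and 0.286% of all start windows changed. Whether the change after injury differed between these clusters and HBC-like cells was tested by an interaction term in edgeR. It differed for 0 of 29 start windows, 1 of them with an unadjusted p under 0.05 (4.16% of all windows differed), and for 19 of 393 member tiles (4.83%, against 7.65% of all tiles), 12 with a larger log2 change in HBC-like cells and 7 with a smaller one. At the Meis1 tile 84.3 kb upstream the mean went from 18.2 to 3.13 CPM in HBC-like cells and from 7.01 to 9.11 CPM in clusters 3 and 4, a difference in log2 change of -2.84 ± 0.34 (SE; edgeR adjusted p = 3.27e-08). At the Otx2 tile the means went from 2.51 to 10.95 CPM and from 4.97 to 5.76 CPM, a difference of 2.11 ± 0.43 (edgeR adjusted p = 0.000651). At the Emx2 tile 58.1 kb upstream they went from 4.35 to 14.0 CPM and from 2.41 to 1.89 CPM, a difference of 2.09 ± 0.48 (edgeR adjusted p = 0.00276). The named Meis1 rise and the named Emx2 fall were not among the 19 tiles that differed. Clusters 3 and 4 held 75 to 306 cells per library, fewer than HBC-like cells in 4 of the 6 libraries, and less depth stands behind their values in those.

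**Figure D5:**
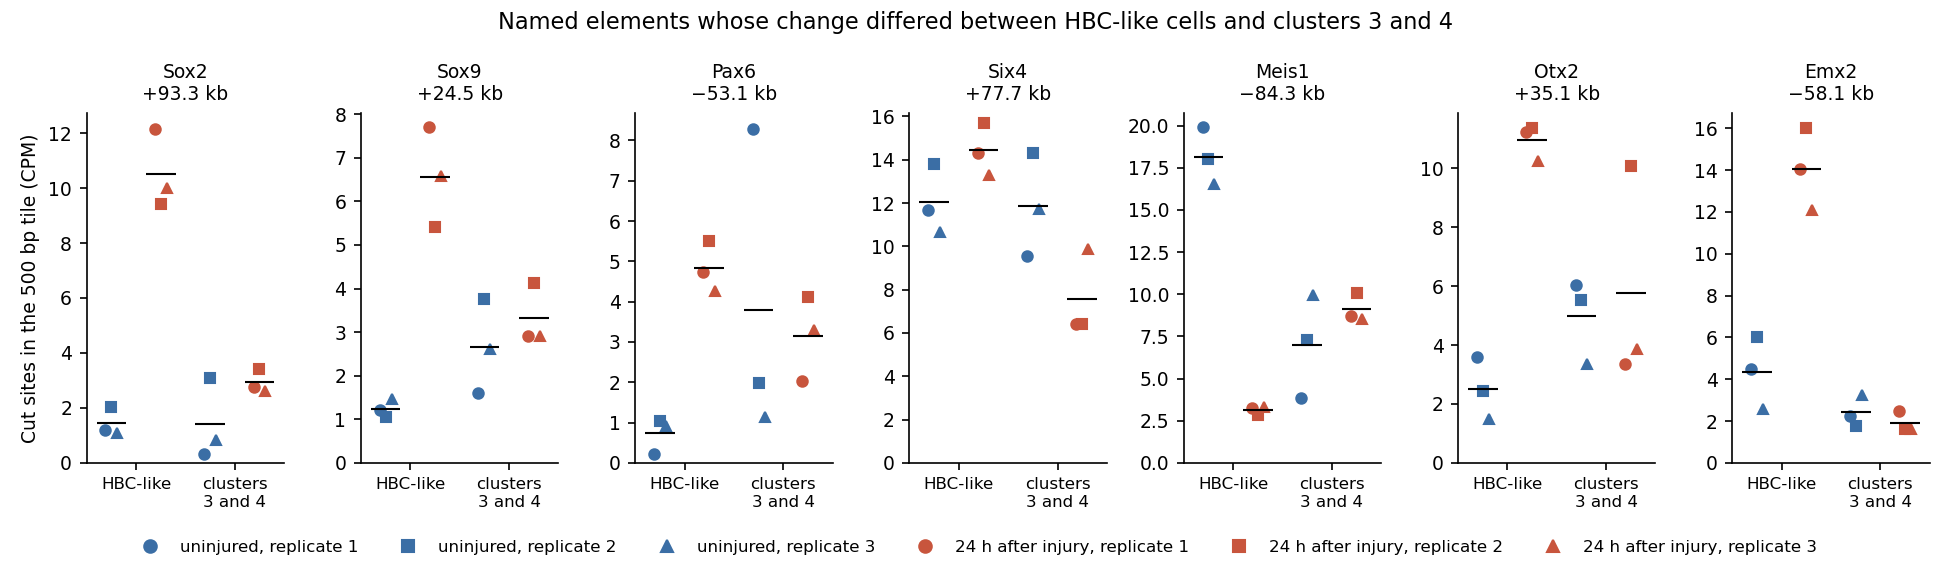
CPM (y axis) of 7 named tiles in each library, in HBC-like cells and in clusters 3 and 4, uninjured in blue and injured in red. In HBC-like cells the groups part at each tile except Six4 at 77.7 kb, while in clusters 3 and 4 no tile was called. Not every named tile differed between the classes: the Meis1 rise at 64.7 kb and the Emx2 fall at 9.88 kb did not pass the interaction test.

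The tile with the highest mean level outside any start differed in kind between the loci. In the Sox2 locus it was chr3:34747501-34748000, 97.3 kb downstream and 4 kb beyond the named riser, with 6.30, 5.30 and 18.5 CPM before and 7.64, 7.46 and 10.7 CPM after injury. Both libraries of replicate 3, in which clusters 3, 4 and 9 were most frequent, were highest. Per class it had 26.9 ± 4.2 CPM in clusters 3 and 4 and 3.11 ± 0.74 CPM in HBC-like cells (SD, n = 6 each). In sustentacular-like cells, whose Sox2 start had 44.6 and 54.5 CPM, it had 0.357 and 0 CPM.

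The most open tile of the Otx2 locus outside a start, chr14:48641501-48642000 in an exon of Gm35766, had 21.04 and 29.5 CPM in sustentacular-like cells and 7.77 ± 2.15 CPM in HBC-like cells. That of Pax6, chr2:105687501-105688000 in an intron of Pax6, had 12.5 and 12.9 CPM in sustentacular-like cells beside 5.17 ± 1.41 CPM in HBC-like cells. None of the most open tiles was called over all barcodes.

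Summed over the whole locus, the gene and 100 kb on each side, 1 of the 8 genes was called, where 12.6% of 21642 genes were. Six4 had 254, 289 and 281 CPM before and 226, 245 and 215 CPM after injury, without overlap (log2 -0.27 ± 0.07 SE; edgeR adjusted p = 0.0401). Sox2 and Emx2 had log2 changes of -0.22 and -0.33 (edgeR adjusted p = 0.0966 and 0.0931), and the other 5 lay between -0.12 and 0.04. The Six4 call was lost without the shared barcodes (edgeR adjusted p = 0.0725) and whichever library was left out (0.0501 to 0.126). DESeq2 called 3 of the 8 totals, where it called 29.7% of all. In HBC-like cells alone edgeR called 3 of 8, beside 40.6% of all genes, and in clusters 3 and 4 alone 0 (2 with an unadjusted p under 0.05), beside 0.413%.

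Across the 11 clusters, the protein-coding genes whose start windows followed each member most closely were found among 13049 genes with a mean of at least 5 CPM, by Pearson correlation of log2(CPM + 1). For Sox2 these were Pitx1, Grhl2 and Acadl (0.994, 0.992 and 0.987), for Sox9 Layn, Pkp1 and Krt17 (0.987, 0.985 and 0.984) and for Pax6 Inhba, Tgif1 and Cdk18 (0.996, 0.994 and 0.992). For Six4 they were Tmed1, Gm20441 and Cdcp1 (0.974 to 0.980), for Meis1 Gabpb1, Anapc4 and Mrnip (0.995 to 0.996) and for Otx2 Mgll, Gipc2 and Tsku (0.972 to 0.977). Emx2 was followed by Zeb1, Cyp4v3 and Sema6a (0.958, 0.916 and 0.913), and Lhx2 by Ccdc184, Fbxl16 and Uchl1 (0.972 to 0.973), of which UCHL1 is a neuronal deubiquitinating enzyme. The clusters share libraries, and cluster 7, with a median of 3808 fragments per cell, was the lowest for 5 of the 8 genes, so these values describe the 11 points and carry no test.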

How the data were processed

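Per the labels, nuclei of sorted cells were profiled with a 10x Genomics single-cell ATAC kit, and per the submitters' processing notes Cell Ranger 2.0.0 and mm10 were used. The authors deposited, for each library, a fragment list with the count of read pairs per fragment and a matrix of raw counts per peak and barcode; the matrices were not used here. Each fragment was counted once whatever its read pairs.

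Both fragment ends were summed per library as cut sites over barcodes with at least 2000 fragments, since cells are not replicates. All 6 libraries entered edgeR 4.0.16 (quasi-likelihood, robust, TMM, filterByExpr; R 4.3.3), with Benjamini-Hochberg adjustment over all features tested and a threshold of 0.05; DESeq2 1.42.0 was an alternative. These fits were tested on simulated data, where the fit to tiles missed most of the changes. Start windows reach 1000 bp either side of a start; starts of a gene less than 1000 bp after the last one kept were dropped. Loci of neighbouring genes overlap.

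Same-numbered libraries of the 2 groups deviated together over 15916 start windows (Pearson 0.198, 0.303 and 0.317). Uninjured replicate 2 and injured replicate 1 also did (0.152), so these values do not settle whether the numbers pair the samples. A fit with the number as a block was run beside the main fits, which have no block. The labels call the libraries biological replicates without saying which animals each held, so p-values measure the spread between these libraries.

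Cells (4403 barcodes with at least 20% of cut sites in open tiles) were clustered without 250 regions of the 8 loci (TF-IDF, 30 components less 2, 15 neighbours, Leiden resolution 0.5; scanpy 1.11.5), giving 11 clusters. Names come from fixed marker lists, with cut-offs set after the clusters were seen. Calling by excess coverage marked 400 of 4476 barcodes (8.94%) as doublets; they were kept, with removal as an alternative. The 8 genes, the lists and the tests were chosen with earlier results of these data known. Named tiles are, per locus, the most open one outside start windows and, of the called tiles whose groups do not overlap and whose mean is 2 CPM or more, the largest change in each direction; of the list, the called windows; and per gene the 3 most correlated genes. The called tile of the Six4 locus is not reported here. Read pairs per fragment ran from 2.55 to 11.2.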

Additional observations from a re-analysis of the deposited data

Results flagged for a closer look

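The change after injury differed between HBC-like cells (clusters 1, 2, 10 and 11) and the unnamed clusters 3 and 4 at 19 tiles of the 8 loci, by an interaction term in edgeR with Benjamini-Hochberg adjustment over 195288 tiles. The values here are the log2 change in HBC-like cells less that in clusters 3 and 4, and 4.83% of the member tiles tested differed beside 7.65% of all tiles. The tiles were chosen by that test.

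In the Sox2 locus the difference was -2.06 at the tile 21.3 kb downstream of the start, inside Sox2ot, and 3.47, 1.82, 3.42 and 3.30 at the tiles 34.8, 93.3, 94.3 and 94.8 kb downstream. The last of these had a mean of 0.421 CPM in HBC-like cells before injury and 2.89 CPM after it, and 4.49 and 3.51 CPM in clusters 3 and 4. The 3.42 at 94.3 kb had an SE of 1.04 and a mean of only 0.217 CPM in uninjured HBC-like cells. In the Sox9 locus the difference was -3.27 and -3.86 at adjoining tiles 19.97 and 19.5 kb upstream, in an intron of BC006965, and 2.17 at 24.5 kb downstream. The Sox9 tile 19.5 kb upstream went from 3.87 to 0.351 CPM in HBC-like cells and from 1.21 to 1.74 CPM in clusters 3 and 4.

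In the Meis1 locus it was 4.42, 3.15 and -2.84 at the tiles 99.7 and 69.7 kb downstream and 84.3 kb upstream, and in the Pax6 locus 2.68 at 53.15 kb upstream. The 4.42 had an SE of 1.35 and a mean of only 0.053 CPM in uninjured HBC-like cells. Otx2 had 4.22 and 2.11 at 83.6 and 35.1 kb downstream. The 4.22 had an SE of 1.14 and a mean of only 0.195 CPM in clusters 3 and 4 after injury. Six4 had -1.85 and 0.90 at 81.7 and 77.7 kb downstream. Emx2 had -3.78 and -3.97 at adjoining tiles 83.6 and 83.1 kb upstream and 2.09 at 58.1 kb upstream. The Emx2 tile 83.6 kb upstream went from 5.90 to 0.940 CPM in HBC-like cells and from 0.818 to 2.08 CPM in clusters 3 and 4. Cluster 3 gave 38, 76 and 157 of these cells in uninjured replicates 1 to 3 and 20, 13 and 78 after injury, and cluster 4 gave 37, 68 and 14 before and 229, 73 and 228 after it, and the part of that shift was not tested.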

How the results depend on the processing

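With HBC-like cells alone, 3 start windows, 44 tiles higher, 51 tiles lower, 3 locus totals and 17 windows of the placodal list were called. The shares over all features there were 24.6% of start windows, 24.1% and 16.2% of tiles and 40.6% of totals. With clusters 3 and 4 alone, 0 tiles higher, 0 lower, 0 locus totals and 0 list windows were called. The shares over all features there were 1.2% and 0.159% of tiles, 0.413% of totals and 0.286% of start windows. Scaling by 10 kb bins gave 12, 8, 35, 7 and 29, where 33.6% of all windows, 3.34% and 4.95% of all tiles and 49.1% of all locus totals were called. Total cut sites gave 7 start windows, 16 tiles lower, 2 locus totals and 23 list windows, beside 21.9%, 2.41% and 15.95% of all windows, tiles and totals. DESeq2 called 13 tiles lower (1.83% of all) and 3 locus totals (29.7% of all). Merged open regions gave 7 higher and 5 lower, beside 5.71% and 1.45% of all regions. The replicate block gave 13 tiles lower and 17 list windows, and 0 member start windows; it changed no other member count by over 1.5 times. Locus totals called fell to 0 over gene bodies alone, without low-openness barcodes, without shared barcodes and without doublets, beside 3.84%, 9.18%, 10.8% and 5.80% of all totals. The list gave 1 called window with only the 5′-most starts and 3 with 500 bp either side, beside 3.92% and 4.72% of all windows. Leaving out single libraries gave 3 to 35 tiles higher, 0 to 21 lower, 0 to 1 locus totals and 1 to 10 list windows. Over pooled cells, 5 of 8 genes were more open in sustentacular-like than in HBC-like clusters 1 and 2, also at resolutions 0.25 and 1; of these Meis1 was not higher by the mean over libraries (25.1 against 25.6 CPM). Fits to fewer cells or libraries have less depth, and the causes of these moves were not tested.

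Log2 changes that turned sign were these. In HBC-like cells Sox2, Pax6 and Meis1 start windows were at 0.087, 0.061 and 0.029, and the Meis1 and Lhx2 totals at 0.047 and 0.14. In clusters 3 and 4 the Pax6 tile was at -0.14, the Meis1 tile that fell at 0.26, and the Otx2 and Lhx2 totals at -0.11 and 0.087. With 10 kb bins the Lhx2 start was at -0.19 and the Otx2 total at -0.27, which total cut sites put at -0.019. Over gene bodies the Sox2, Meis1 and Otx2 totals were at 0.037, 0.18 and -0.060. Without low-openness barcodes Pax6 start 4 was at 0.0022, with at least 5000 fragments the Sox9 total at 0.0081 and without doublets at 0.023. Leaving out single libraries gave -0.14 to 0.064 at Pax6 start 4 and -0.31 to 0.085 at Otx2 start 3, and totals of -0.057 to 0.091 for Sox9, -0.071 to 0.16 for Otx2 and -0.19 to 0.10 for Lhx2. None of the values that turned sign passed the test.

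Injured replicate 2 drew 15.9% of its cut sites from 16 barcodes with less than 20% of cut sites in open tiles. The libraries held 14825320 to 44875242 cut sites. The fits without shared barcodes and to clusters 3 and 4 alone were chosen after seeing the data.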
